A study of Mus musculus with 12 samples.

Results

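The genes that encode the proteins of the cytosolic ribosome were followed across 6 brain regions of IL-18-deficient (KO) and wild-type (WT) mice. Members were taken by symbol: Rpl or Rps followed by a number, with Rplp0, Rplp1, Rplp2 and Rpsa, leaving out the Rps6k kinases and pseudogenes. The arrays measured 82 such genes, 51 of the large and 31 of the small ribosomal subunit, among 16358 named genes and 33390 genes and unnamed transcripts in all. The rule finds 84 protein-coding genes in the RefSeq table used here. Each gene was read by 1 probe, the brightest of its probes on average over the arrays.

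All 12 samples were male C57BL/6 mice by label, 12 weeks old, and each was a pool of equal RNA amounts from 5 mice. WT and IL-18 KO animals came from an F2 generation bred from IL-18-/- and C57BL/6J parents. Mice of both genotypes were perfused with cold phosphate-buffered saline before slicing, and the labels name no other treatment. For each genotype a 1-colour array was run on hippocampus, hypothalamus, amygdala, striatum, olfactory bulb and prefrontal cortex. The labels do not limit the deletion to a cell type, and they do not say whether the same 5 mice gave all 6 regions.

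Ribosomal proteins assemble with ribosomal RNA into a large and a small subunit in the nucleolus, and each ribosome holds a single copy of most of them. Their mRNAs are among the most abundant in a cell. Most begin at a cytosine inside a short pyrimidine stretch, the 5′ terminal oligopyrimidine (TOP) motif, through which mTORC1 and Larp1 control their translation. A few members have paralogs with restricted expression, such as Rpl3l in striated muscle and Rpl39l in the testis.

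The start site windows of a chosen set of members show where such runs lie. Each is 30 bases, 15 before the annotated start and 15 from it, from RefSeq on GRCm38.p6, with the longest run of at least 6 pyrimidines in capitals. The first 7 windows belong to genes that were higher in the striatum, with 2 annotated starts for Rpl22, and the last 3 belong to Rpl18, which was lower there, and to the paralogs Rpl7l1 and Rpl22l1. The run reaches the start base in Rplp2, Rpl38, Rps27 and Rpl35, lies only after it in Rps12, Rpl18 and Rpl22l1, and is absent in Rpl22 and Rpl7l1.
Rplp2 (chr7:141447636-141447665, plus strand): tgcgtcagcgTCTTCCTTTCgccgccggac
Rpl38 (chr11:114668565-114668594, plus strand): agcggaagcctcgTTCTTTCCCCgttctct
Rps27 (chr3:90213634-90213663, minus strand): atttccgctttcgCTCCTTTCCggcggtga
Rpl35 (chr2:39005117-39005146, minus strand): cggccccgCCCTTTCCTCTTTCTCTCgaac
Rps12 (chr10:23787195-23787224, minus strand): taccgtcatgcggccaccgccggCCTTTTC
Rpl22, first start (chr4:152324421-152324450, plus strand): cgctgcttctggaatgttccagctcccact
Rpl22, second start (chr4:152325711-152325740, plus strand): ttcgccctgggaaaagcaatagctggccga
Rpl18 (chr7:45718056-45718085, plus strand): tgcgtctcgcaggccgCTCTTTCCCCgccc
Rpl7l1 (chr17:46782642-46782671, minus strand): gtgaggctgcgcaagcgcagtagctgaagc
Rpl22l1 (chr3:28805493-28805522, plus strand): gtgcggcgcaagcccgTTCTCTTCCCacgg

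The RefSeq promoter table held 62 of the 82 genes. A pyrimidine run of at least 6 bases lay in the 30-base window of 37 of the 62, 59.7%, against 32.7% of the 27025 genes in the table. The run covered the start base itself in 19 of them, 30.6%, against 8.48% of all genes. Over the 300 bases from 250 before the start to 50 from it, the ETS-type motif CCGGAAG occurred on either strand in 25 members, 40.3%, against 9.93% of all genes. The TATA box letters TATAAA, searched on the same strands and window, occurred in 1 member, 1.61%, against 2.25% of all genes. Members that were higher in the striatum held a run in 56.5% of 46 cases, and the other members in 68.8% of 16. These are letter matches and say nothing about binding or use.

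A level below is the log2 signal of a probe minus the log2 of the 75th percentile of its own array. Levels of different genes come from different probes and are not compared. On that scale 81 members were well above background on all 12 arrays; Rpl39l was not on either striatum array. The 75th percentile itself was 208 and 272 intensity units on the striatum WT and KO arrays and 502 to 768 on the other 10. Each region's pair of arrays shared a slide, so slide and region cannot be told apart. The targeted gene Il18 was lower in KO in all 6 regions, by 3.73 to 5.10 on the log2 scale, with a mean difference of -4.36 (SE 0.16, limma adjusted p = 0.000615). Region markers were higher in their own region for 6 of 6 striatal markers, 5 of 5 cortical, 4 of 4 olfactory bulb, 5 of 5 hippocampal and 6 of 6 hypothalamic markers tested. Of the 5 amygdala markers 3 were higher in the amygdala and 1 was lower. The array labelled amygdala WT went against its label. It carried hypothalamic markers at the level of the hypothalamus: Pmch, a neuropeptide of that region, stood at 6.02 on it, 5.92 on hypothalamus WT and -1.64 on amygdala KO. Summed linear levels of the hypothalamic list were 173 times the 75th percentile on the array labelled amygdala WT, 149 and 178 on the hypothalamus arrays and 2.33 on amygdala KO. The regional counts for the hypothalamus and the KO minus WT counts across regions are given without it too. The amygdala then rests on 1 array and is given no count. The arrays labelled amygdala stood closest to those labelled hypothalamus. The median absolute difference over all features tested was 0.11 between the WT arrays of these regions and 0.26 between the WT and KO arrays of the amygdala.

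The question set by the design is what loss of IL-18 changes in each region. Across regions, no ribosomal protein gene passed the test for a KO minus WT difference. With region as a block, 0 of 82 members reached a limma adjusted p under 0.05, against 0.0402% of the 24860 features tested. At an unadjusted p under 0.05 there were 14 of 82, or 17.1%, against 23.3% of all features. The members' median difference was -0.03, against -0.02 for all features, with 24 members higher and 58 lower. Array median scaling turned that balance, with 51 higher and 31 lower and a median of 0.03, where that of all features was 0.03 too. Without the array labelled amygdala WT, 35 members were higher and 47 lower, and 0 were called. The smallest limma adjusted p among members was 0.121, for Rpl3. Among features above the 75th percentile alone, Rpl3 (limma adjusted p = 0.0371) and Rpl41 (limma adjusted p = 0.0448) passed, and with normexp background correction Rpsa did (limma adjusted p = 0.0499). The p-values measure the spread over regions, and regions of the same pooled mice would make them too small as evidence on genotype.

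Rpl3 encodes a core protein of the large subunit beside the peptidyl transferase centre. Its WT and KO levels were 4.86 and 5.28 in the olfactory bulb, 5.02 and 5.24 in the prefrontal cortex, 5.30 and 5.43 in the striatum, 5.74 and 5.82 in the amygdala, 5.30 and 5.53 in the hippocampus, and 5.69 and 5.87 in the hypothalamus. The KO value was above the WT value of the same region in 6 of 6 regions. The mean difference was 0.21 (SE 0.06), which did not pass the test.

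Rpl4, whose protein lines the exit tunnel, had the highest KO minus WT value, 0.31 (SE 0.12, limma adjusted p = 0.195). Its levels were 1.81 and 2.04 in the olfactory bulb, 1.36 and 2.16 in the prefrontal cortex, 2.01 and 1.82 in the striatum, 2.04 and 2.61 in the amygdala, 2.11 and 2.42 in the hippocampus, and 2.28 and 2.44 in the hypothalamus, WT before KO. Its WT array of the prefrontal cortex was the lowest of the 12, and the striatum went the other way. The next highest values were Rpsa at 0.17, Rpl29 at 0.16, Rpl5 at 0.13, Rps6 at 0.13, Rpl28 at 0.12 and Rps15a at 0.11. Rps6, the subunit protein that S6 kinases phosphorylate, was higher in KO in 4 of 6 regions. None of these passed the test. A second probe for Rpsa gave -0.14, and 12 of 28 members with at least 2 measured probes had KO minus WT values of opposite sign, though none lay over 0.5 apart.

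At the other end lay Rpl3l at -0.26, Rpl39l at -0.22, Rpl41 at -0.21, Rps28 at -0.17, Rpl13 at -0.17, Rps12 at -0.17, Rplp2 at -0.16 and Rpl38 at -0.15. Rpl39l was not well above background on the striatum arrays, and its mean over the 5 regions where it was measured was -0.08. Rpl41, which encodes the smallest ribosomal protein, was lower in KO in 5 of 6 regions, and its limma adjusted p was 0.133. Its levels ran from 6.90 and 6.71 in the olfactory bulb to 8.36 and 8.05 in the striatum, WT before KO. In the hypothalamus the order turned, at 7.23 and 7.27. Members higher in KO in all 6 regions were Rpl3, Rpl5 and Rpl28, 3.66% against 8.29% of all features. Those lower in all 6 were Rpl3l and Rpl12, 2.44% against 8.73%.

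Il18 lies on chromosome 9 in the RefSeq table, with 6 members on the same chromosome. Rplp1 is 103 tested genes away from it, Rpl4 120, Rps27l 159, Rpl29 322, Rpsa 474 and Rpl14 479. Their KO minus WT differences were -0.13 for Rplp1, 0.31 for Rpl4, 0.08 for Rps27l, 0.16 for Rpl29, 0.17 for Rpsa and -0.03 for Rpl14. The median of these 6 was 0.12, against -0.04 for the other 76 members, and none of the 6 passed the test. Whether chromosome around Il18 that came from the KO parent has a part in these values was not tested.

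Within a region there is 1 array per genotype, so the differences are values with no test. The hypothalamus stood apart in direction: 78 members were higher in KO there and 4 lower, with a median of 0.08, where 49.9% of all features were higher. The amygdala had 12 higher and 70 lower with a median of -0.15, where 55.7% of features were lower. Between the arrays of that comparison the summed hypothalamic markers were 173 in the one labelled WT and 2.33 in KO, and the choroid plexus markers 10.6 and 1.87. Their part in the amygdala value was not tested, and without that array the comparison has no value. The hippocampus had 20 higher and 62 lower with a median of -0.08, where 48% of features were lower. The median was -0.06 in the striatum, with 53 of 81 measured members lower where 51.9% of features were. It was -0.03 in the prefrontal cortex, with 47 members lower against 57% of features, and -0.02 in the olfactory bulb, with 49 lower against 59.8%.

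No member differed 2-fold in any region, where 0.924% of all features did in the olfactory bulb, 4.33% in the prefrontal cortex, 1.56% in the striatum, 6.86% in the amygdala, 1.75% in the hippocampus and 0.987% in the hypothalamus. The largest values were 0.80 for Rpl4 in the prefrontal cortex and -0.78 for Rpl3l in the hypothalamus, the latter from a dim probe. The scanner software gave the difference of a single gene an error of about 0.20, which covers technical noise at most. Its median was 0.20 in every region, so it acts nearly as a fixed limit and not as a spread measured between arrays. In the amygdala 24 members lay beyond it, and in the other regions 5 to 16. These counts are given without the share of all features. In the authors' deposited table of KO over WT ratios, 80 members were listed, and 76 were higher in the hypothalamus and 69 lower in the amygdala. Under all 4 scalings tried, the members' median stayed above 0 in the hypothalamus, at 0.04 to 0.12, and below 0 in the hippocampus, at -0.10 to -0.02. Array median scaling turned the amygdala to 0.06, the prefrontal cortex to 0.09 and the olfactory bulb to 0.04, and quantile normalization turned the striatum to 0.07 and the olfactory bulb to 0.0057. Normexp turned the striatum to 0.0079. Array median scaling moved all features too, to medians of 0.16 in the amygdala, 0.08 in the prefrontal cortex and 0.02 in the olfactory bulb. Minus the median of all features, the amygdala members' median stayed below 0 under all 4 scalings, at -0.13 to -0.03.

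**Figure D1:**
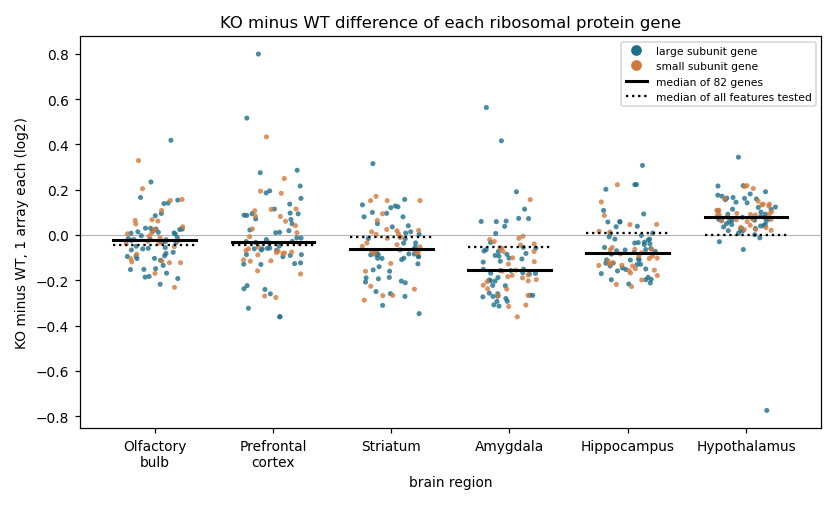
KO minus WT difference (log2, vertical axis) of each ribosomal protein gene in 6 regions (horizontal axis), 1 array per genotype; points are genes coloured by subunit, solid lines the members' medians and dotted lines the medians of all features. The hypothalamus median lies at 0.08 and the amygdala median at -0.15.

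The regional differences were larger than the genotype differences, but genotypes were compared within a slide and regions across slides. The regional p-values rest on how KO minus WT differences spread over regions. That spread holds no variation between slides, so these p-values can be too small as evidence on region. In the striatum 62 of 82 members, 75.6%, were higher than the mean of the other 5 regions and 4 were lower (limma adjusted p under 0.05), against 37.1% and 28.9% of all features. The members' median difference was 0.54, against 0.09 for all features, and 57 members had both striatum arrays above the other 10, against 22.8% of features. A rise of at least 1 on the log2 scale was called for 15 members, 18.3%, against 13.1% of features. Small subunit members had a median of 0.70 and large subunit members 0.50. In bulk tissue, more cells of a type and more RNA per cell cannot be told apart.

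**Figure D2:**
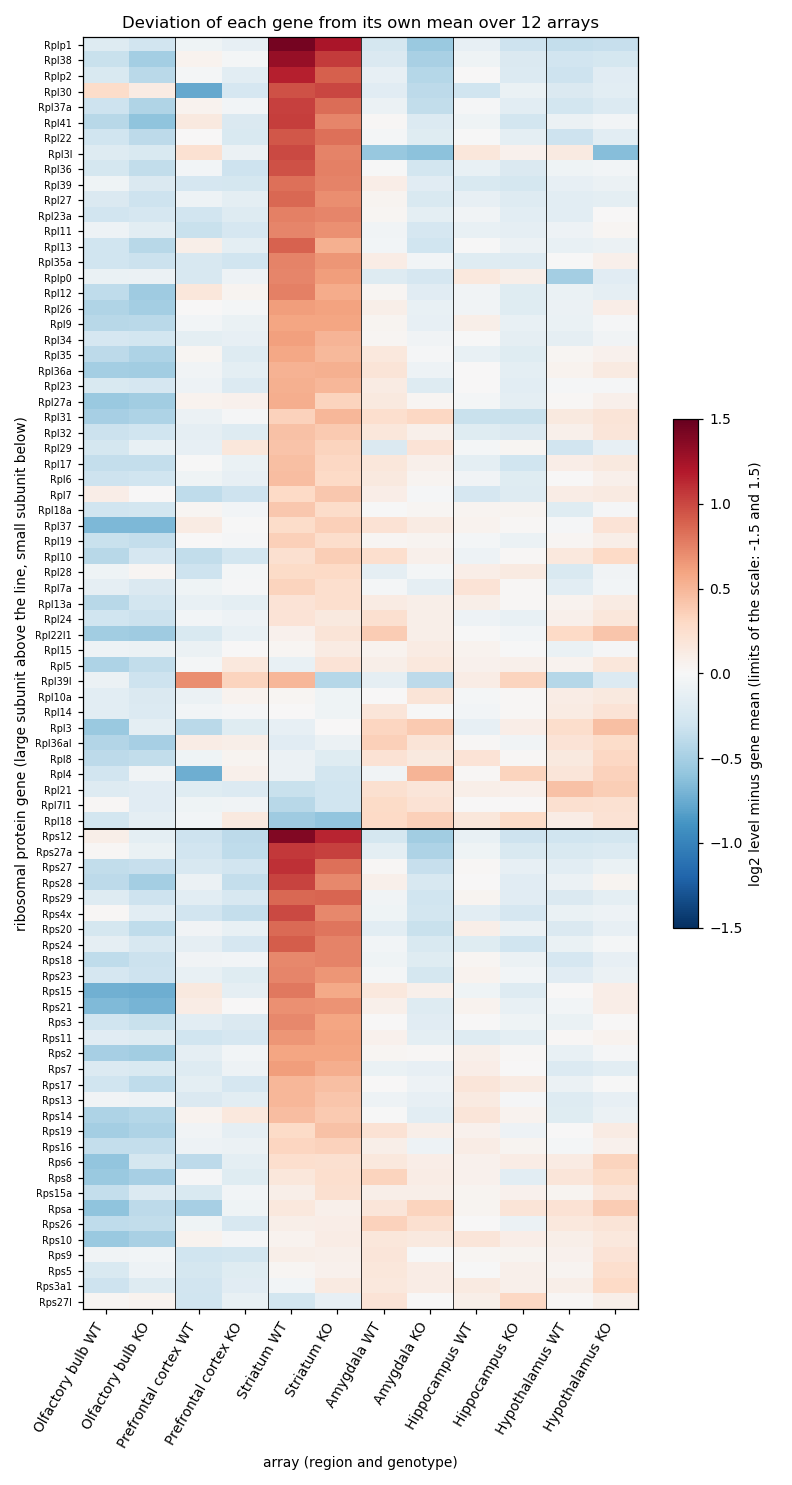
Log2 level of 82 ribosomal protein genes (rows, large subunit above the line) on 12 arrays (columns), each as its deviation from the gene's own mean; red is higher and blue lower, and Rpl39l was not well above background on the striatum arrays. The 2 striatum columns are high for most genes, and the 2 olfactory bulb columns are low.

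Proteins of the ribosomal stalk, which recruit the elongation factors, held the widest difference. Rplp1 stood at 9.66 and 9.46 on the striatum WT and KO arrays and between 7.67 and 8.16 on the other 10. The striatum arrays did not overlap the rest, and the difference was 1.59 (SE 0.08, limma adjusted p = 1.21e-05), or 3.02-fold. Rplp2 stood at 8.59 and 8.32 against 6.99 to 7.43, a difference of 1.24 (SE 0.09, limma adjusted p = 4.64e-05). Rplp0, the base of the stalk, stood at 7.19 and 7.08 against 5.94 to 6.61, a difference of 0.82 (SE 0.10, limma adjusted p = 0.00032). A second, dimmer probe for Rplp0 gave -0.18, so the direction for Rplp0 depended on the probe.

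Rps12, a protein of the small subunit's beak, stood at 8.38 and 8.14 in the striatum and at 6.47 to 7.08 elsewhere. Its difference was 1.52 (SE 0.08, limma adjusted p = 1.39e-05). Rpl38, a small protein of the large subunit known for its part in the translation of Hox mRNAs, stood at 8.52 and 8.26 against 6.69 to 7.26, a difference of 1.41 (SE 0.08). Rps27a, made as a fusion with ubiquitin, stood at 6.97 and 6.94 against 5.45 to 5.93, a difference of 1.25 (SE 0.08). For all 3 genes the striatum arrays lay above every other array.

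The 2 proteins that carry 5S RNA into the ribosome and bind Mdm2 when free did not move together. Rpl11 stood at 7.10 and 7.06 in the striatum against 6.04 to 6.40, a difference of 0.85 (SE 0.08, limma adjusted p = 8.91e-05). Rpl5 stood at 6.11 and 6.42 against 5.76 to 6.39 elsewhere, a difference of 0.06 (SE 0.07, limma adjusted p = 0.518). Rps6 stood at 5.12 and 5.11 against 4.27 to 5.20, within the range of the other arrays, with a difference of 0.30 (SE 0.09, limma adjusted p = 0.0235).

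The 4 members that fell in the striatum were Rpl18, Rpl7l1, Rpl21 and Rps27l. Rpl18, a large subunit protein, stood at 2.97 and 2.90 against 3.22 to 3.85 elsewhere. The difference was -0.67 (SE 0.07, limma adjusted p = 0.00016). Rpl7l1 stood at 0.03 and 0.15 against 0.28 to 0.74, a difference of -0.43, and Rpl21 stood at -1.11 and -1.08 against -0.98 to -0.34, a difference of -0.39. For these 3 both striatum arrays were the lowest of the 12, which held for 3.66% of members against 16.5% of features. Rps27l, at 1.89 and 2.04, overlapped the other arrays, which ran from 1.87 to 2.49.

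The size of this regional difference, and its direction against all features, depended on the scaling. Before scaling, the members' median signal was lowest on the striatum arrays, at 12766 intensity units for WT and 15883 for KO. On the others it ran from 20728 (prefrontal cortex WT) to 33522 (amygdala KO). Quantile normalization left 34 members higher and 14 lower in the striatum, with a median of 0.12, against -0.01 for all features. Normexp background correction left 55 higher and 9 lower with a median of 0.37, but moved the median of all features to 0.44, so that the members were no longer above it. The counts under quantile normalization and normexp are given without the share of all features, which the scaling can move too. Under all 4 scalings 33 members, 40.2%, were higher, against 29% of features, and Rpl18, Rpl7l1 and Rps27l were lower. Rps27a kept 0.70 and Rps12 0.65 under quantile normalization, while Rplp1 kept 0.21.

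**Figure D3:**
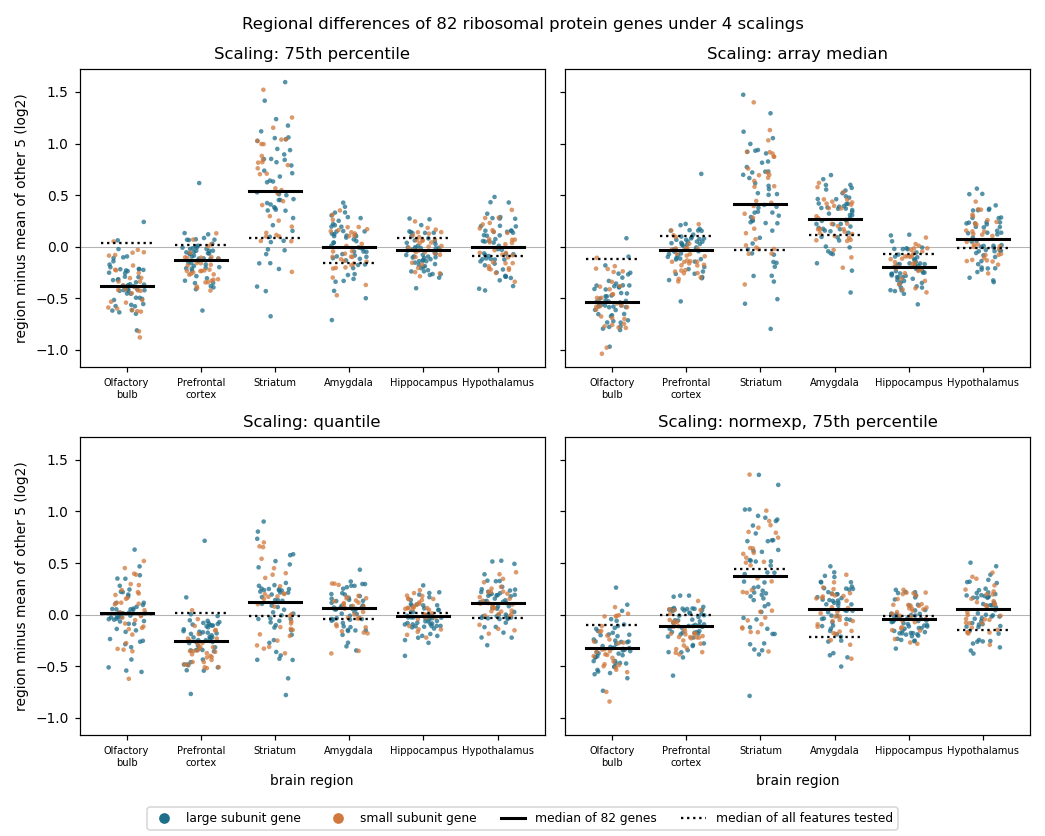
Difference of each region from the mean of the other 5 (log2, vertical axis) for 82 genes under 4 scalings of the arrays, 1 panel each; points are genes coloured by subunit, solid lines the members' medians and dotted lines the medians of all features. The striatum median falls from 0.54 to 0.12 with quantile normalization, and the olfactory bulb median moves from -0.38 to 0.01.

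Brightness moved with the striatum difference. Among features with a mean level above 6, the striatum median was 0.85 for the 32 members and 0.46 for the features that were not members. Between levels 4 and 6 it was 0.48 for 32 members and 0.22 for the others, and between 2 and 4 it was 0.12 for 12 members and 0.06. Below level 2 it was 0.0055 for 6 members and 0.08 for the others. Of the 1069 features above level 4, a limit added after the data were seen, 59.7% were higher in the striatum, as were 85.9% of the 64 members. The striatum arrays were the dimmest of the 12, and the part of brightness in the result was not tested.

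**Figure D4:**
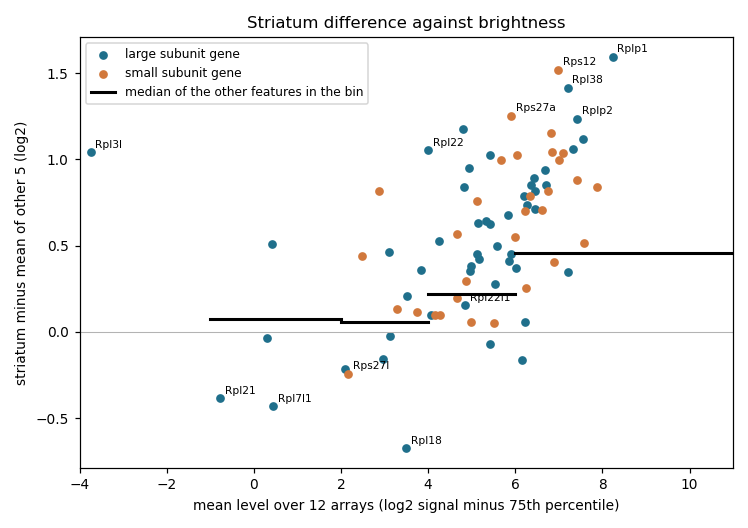
Striatum minus the mean of the other 5 regions (log2, vertical axis) against the gene's mean level over 12 arrays (log2 signal minus the 75th percentile, horizontal axis); points are 82 genes coloured by subunit, and black bars are medians of the other features in 4 bins of level. The bars stand at 0.08 below level 2, 0.06 between levels 2 and 4, 0.22 between 4 and 6 and 0.46 above 6, and most members above level 6 lie over the bar.

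Separate probes of a gene often gave different striatum values. Of 28 members with at least 2 measured probes, 18 had every probe above 0 in the striatum, 1 had every probe below 0 and 9 had probes of opposite sign. Those 9 were Rpl19, Rpl22, Rpl29, Rpl37, Rpl6, Rpl7, Rpl7a, Rplp0 and Rps15a. Rpl7a, a large subunit protein, had 3 probes at 0.35, -0.63 and 1.36, and Rps15a had 2 at 0.20 and -1.72. Other genes repeated closely: Rpl36 gave 1.03 and 1.05, Rps28 1.04 and 0.90, Rpl35a 0.84 and 0.89, and Rpl23 0.62 and 0.63. The brightest probe gave the higher value than the mean of the other probes in 20 of the 28. What the disagreeing probes bind was not tested.

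**Figure D5:**
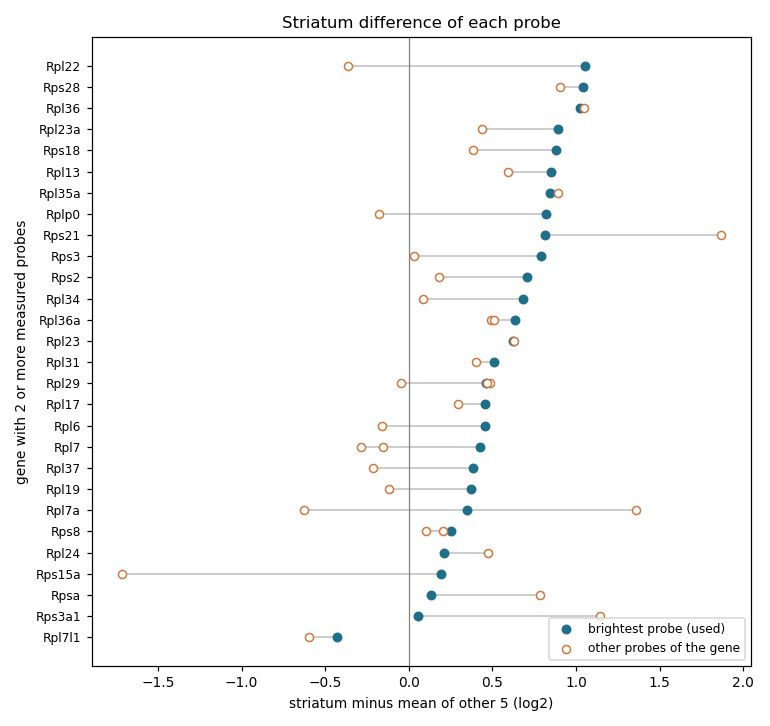
Striatum minus the mean of the other 5 regions (log2, horizontal axis) for every measured probe of 28 genes (vertical axis); filled points are the brightest probe, which is the one used, and open points the other probes of the gene. Rps28, Rpl36, Rpl35a and Rpl23 repeat closely, while Rps15a and Rpl7a span both sides of 0.

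Paralogs and their parent genes had different striatum values. The difference of Rps27 minus Rps27l was 5.60 to 6.02 on the striatum arrays and 4.21 to 4.71 on the other 10, a shift of 1.40. The same shift was 0.85 for Rpl7 minus Rpl7l1, 0.90 for Rpl22 minus Rpl22l1 and 0.79 for Rpl36a minus Rpl36al, each with both striatum arrays above all others. Each of these shifts was the largest of the 6 regions, and keeping each region's arrays together the exact permutation p, two-sided by size, was 0.167, the smallest that 6 regions allow, and 0.25 after Benjamini-Hochberg adjustment over 6 pairs. The design thus cannot reach 0.05 for these shifts. The parent's probe was the brighter of the pair for Rps27, Rpl7 and Rpl36a but not for Rpl22, and the part of brightness in the shifts was not tested. Under quantile normalization the striatum values of parent and paralog were 0.40 and -0.30 for Rps27 and 0.05 and -0.44 for Rpl7. They were 0.74 and -0.19 for Rpl22 and 0.25 and -0.25 for Rpl36a. The shift of Rpl3 minus Rpl3l was -1.11 with an exact permutation p of 0.333, also 0.333 after adjustment. Rpl3l rests on a dim probe with a mean level of -3.74. The Rpl39 pair is given no value because Rpl39l was not well above background in the striatum. The parent's value depended on the probe in 2 of these pairs: Rpl22 gave -0.36 with its second probe, and the other probes of Rpl7 gave -0.29 and -0.15.

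The olfactory bulb lay at the other end. Here 63 of 82 members, 76.8%, were lower than in the other 5 regions and none was higher, against 26.6% and 25% of all features. The members' median was -0.38, against 0.04 for all features. Rps15, a small subunit head protein near the decoding site, stood at 2.15 and 2.13 against 2.68 to 3.67 on the other arrays, a difference of -0.88 (SE 0.08, limma adjusted p = 0.000219). Rps21 stood at 6.08 and 6.04 against 6.55 to 7.43, a difference of -0.82 (SE 0.08, limma adjusted p = 0.000296), although its second probe gave 0.05. Rpl37 stood at 4.31 on both arrays against 4.97 to 5.35, a difference of -0.81, and Rpl27a at 3.69 and 3.72 against 4.10 to 4.79, a difference of -0.65. For these 4 genes both olfactory bulb arrays were below the other 10, as they were for 37 members, or 45.1%, against 14.3% of features.

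Rpl30, Rpl7, Rps27l and Rpl28 were nearest to the other regions there, at 0.24, 0.06, 0.05 and -0.02, and none of these passed the test. Quantile normalization turned the olfactory bulb balance, with 19 members higher and 11 lower and a median of 0.01, against 0.0079 for all features. The share of all features called under it is not given. Under all 4 scalings 10 members were lower, 12.2% against 20.5% of features: Rpl21, Rpl27a, Rpl31, Rpl36al, Rpl37, Rps10, Rps15, Rps19, Rps21 and Rpsa. Among the features above level 4, 76.1% were lower in the olfactory bulb, as were 82.8% of the 64 members. Above level 6 the olfactory bulb median was -0.42 for members and -0.48 for features that were not members. Between levels 4 and 6 it was -0.35 and -0.41, so bright members were not below other bright features. Between 2 and 4 it was -0.39 and -0.30, and below level 2 it was -0.23 and 0.11. The part of brightness was not tested.

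The prefrontal cortex had 23 members lower and none higher, against 14.4% and 19.5% of all features, with a median of -0.12. Small subunit members had a median of -0.23 and large subunit members -0.09. Rpl30 stood at 4.03 and 4.54 against 4.40 to 5.80, overlapping the rest, with a difference of -0.62 (SE 0.13, limma adjusted p = 0.0132). Rps12 differed by -0.42, Rpl7 by -0.41 and Rps27a by -0.40, of which Rpl7, at 4.78 and 4.85 against 4.91 to 5.56, lay below every other array. Both arrays were below the other 10 for 5 members, 6.1%, against 3.26% of features. Rpl39l at 0.62, Rpl12 at 0.13, Rps14 at 0.13 and Rpl36al at 0.12 had the highest values, and none passed the test. Rpl10, Rpl30, Rpl7, Rps12 and Rps27a were lower under all 4 scalings, 6.1% of members against 8.98% of features. Above level 4, the limit added after the data were seen, 50% of 64 members were lower and 1.56% higher, against 15.7% and 51.3% of features. Array median scaling left 5 members lower and 1 higher, and quantile normalization 48 lower, counts given without the share of all features. The members' medians under these scalings were -0.04 and -0.26, against 0.11 and 0.02 for all features.

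In the amygdala 11 members were higher and 8 lower, against 16.3% and 31.7% of all features, and the median was 0.00 where that of all features was -0.15. Rpl3, at 5.74 and 5.82 against 4.86 to 5.87, differed by 0.43 (SE 0.08, limma adjusted p = 0.00536). Rpl18 differed by 0.39, Rps26 by 0.35 and Rpl31 by 0.33. Rps26, at 4.09 and 3.99 against 3.37 to 3.94, lay above all other arrays, as 2 members did (2.44%, against 1.23% of features). The lowest were Rpl3l at -0.71, Rplp1 at -0.50, Rps12 at -0.47 and Rpl38 at -0.43. These values include the array labelled amygdala WT. Without it the region rests on 1 array, so no count is given. Array median scaling gave 39 higher and 1 lower, and moved the median of all features from -0.15 to 0.11. The share of all features called under that scaling is not given.

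The hypothalamus had 10 members higher and 8 lower, against 12.3% and 18% of all features. Rpl21, at -0.34 and -0.40 against -1.11 to -0.53, lay above all other arrays with a difference of 0.48 (SE 0.06, limma adjusted p = 0.00253). It was the 1 member with both arrays above the other 10, 1.22% against 1.03% of features. Rpl22l1 and Rpl3 each differed by 0.43 and Rpsa, also known as the laminin receptor, by 0.36. The lowest were Rplp1 at -0.42, Rplp0 at -0.41, Rpl39l at -0.38, which did not pass the test, and Rps12 at -0.34. Higher under all 4 scalings were 8 members in the hypothalamus (9.76% against 9.29% of features) and 9 in the amygdala (11% against 12.1%). Rpl21, Rpl22l1, Rpl3, Rpl36al, Rpl7l1, Rps26 and Rpsa are on both lists, whose comparisons share arrays. The array labelled amygdala WT carried hypothalamic markers, as given above, so the overlap of the lists cannot be told from that array's content. Without it, in the scaling by the 75th percentile, 12 members were higher in the hypothalamus and 6 lower. The share of all features in that fit is not given. Of those 7 genes, 6 were still called higher in the hypothalamus, all but Rps26, and the amygdala was left with 1 array.

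The hippocampus had 1 member higher and 10 lower, against 23.7% and 12.8% of all features. Rpl31, at 0.08 and 0.07, differed by -0.40 (SE 0.06, limma adjusted p = 0.00317), though its other arrays began at -0.08. Rpl39 differed by -0.30, Rps24 by -0.29 and Rpl7 by -0.27. Rpl18, at 3.67 and 3.78, was the member that was higher, by 0.27 (SE 0.07, limma adjusted p = 0.0206). Rpl39l at 0.27, Rps27l at 0.25 and Rpl4 at 0.21 had the next values and did not pass the test. Rpl17, Rpl31, Rpl39, Rps24 and Rps4x were lower under all 4 scalings, 6.1% against 11.9% of features.

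Over the 6 region means the widest spreads were 1.74 for Rplp1, 1.66 for Rps12, 1.60 for Rpl38, 1.49 for Rpl30, 1.46 for Rpl3l and 1.41 for Rps15. The narrowest were 0.17 for Rpl15, 0.32 for Rpl10a and 0.34 for Rpl14. Rpl30 was lowest in the prefrontal cortex, and its olfactory bulb arrays, at 5.07 and 4.92, lay inside the range of the rest.

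Genes that work with the ribosome were described by count. Fau, which fuses a ubiquitin-like domain to a ribosomal protein, and the ribosome-bound scaffold Rack1 were both higher in the striatum, by 0.98 and 0.48, though their median fell to 0.044 under quantile normalization. For comparison, 37.1% of all features were higher there and 28.9% lower. Of 14 translation genes of the TOP class 10 were higher there and 3 lower, among them Eef1a1 at 1.33 and, in the other direction, Eef2 at -0.84. Of 24 ribosome biogenesis genes 8 were higher and 6 lower, with a median of -0.03, shares near those of all features. Of 11 genes of mTORC1 and TOP control 2 were higher and 6 lower, with a median of -0.39. Of 76 mitochondrial ribosomal protein genes, which serve a separate ribosome, 20 were higher and 30 lower with a median of -0.09, and 51 were lower in the olfactory bulb. None of the genes of these 5 lists passed the KO minus WT test.

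Markers of other cell types moved with the striatum. Of 5 oligodendrocyte markers 4 were higher there, with summed linear levels of 410 and 564 times the array's 75th percentile against 80.9 to 236 on the other 10 arrays. All 4 endothelial markers were higher, with sums of 24.4 to 27.0 against 10.5 to 20.1, and 3 of 4 astrocyte markers were lower. Oligodendrocyte markers were also lower in the olfactory bulb, 4 of 5, and in the prefrontal cortex, 5 of 5, where members were lower too, and higher in the hippocampus, 5 of 5, where the members' median was -0.03. Their part in the members' differences was not tested.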

How the data were processed

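Per the file headers, Agilent Feature Extraction made the 1-colour intensity files; the processed signal intensity used here was background-subtracted by that software, with no scaling between arrays. A deposited table of each KO array's ratio over the WT array served as an alternative within regions. Probes were named by matching RefSeq accessions to symbols: 22951 of 41174 probes (55.7%) had a name. log2 intensity minus the log2 75th percentile of each array was computed, control and outlier spots were left out, and the brightest probe stood for a gene. The number of arrays limits precision.

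Features well above background on at least 6 arrays (24860) were fitted in R 4.3.3 with limma 3.58.1 (lmFit, eBayes, Benjamini-Hochberg over all features, threshold 0.05). KO minus WT had region as a block. Each region was set against the mean of the other 5 with genotype as covariate. The normexp alternative (offset 50) used median signals. The scripts were tested on simulated data.

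Members and gene lists were chosen with earlier results of these data known. Named genes were the 8 highest and 8 lowest for KO minus WT, 4 highest and 4 lowest per region, the 6 widest and 3 narrowest over regions, members on Il18's chromosome, paralogs, role groups (stalk, 5S particle, Rps6, Rps27a), and genes with disagreeing probes. A few genes were named after their values were seen, as members of small counts. Rps19bp1, a binding protein, was not counted. The labels do not say that samples are separate animals beyond the pools. One gene of a list is not reported here.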

Additional observations from a re-analysis of the deposited data

Results flagged for a closer look

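The members' median KO minus WT difference was above 0 in the hypothalamus and below 0 in the other 5 regions. The median of all features was lower than the members' in the olfactory bulb (-0.04 against -0.02) and the prefrontal cortex (-0.05 against -0.03). The hypothalamus exceeded the olfactory bulb by 0.10, the prefrontal cortex by 0.11, the striatum by 0.14, the amygdala by 0.23 and the hippocampus by 0.16 on the log2 scale. With 1 array per genotype and region, the difference was not tested, and array median scaling turned 3 of the 5 regions below 0 to values above 0. Quantile normalization turned the striatum and the olfactory bulb, and normexp the striatum. Of the regions below 0, only the hippocampus stayed there under every scaling tried. Median scaling shifts every feature of an array alike, and the median of all features in the amygdala was 0.16 under it. Minus the median of all features, the members' median was below 0 under every scaling in the amygdala, at -0.13 to -0.03, and in the hippocampus, at -0.09 to -0.02. The array labelled amygdala WT carried summed hypothalamic markers of 173, against 2.33 on amygdala KO, and their part in the amygdala value was not tested.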

How the results depend on the processing

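The KO minus WT test paired the arrays of a region through the region block, and leaving that block out kept 0 members called. Counts below are members called in either direction, 63 in the olfactory bulb, 23 in the prefrontal cortex, 66 in the striatum, 19 in the amygdala, 11 in the hippocampus and 18 in the hypothalamus, and shifts are the members' median minus that of all features, -0.41 in the olfactory bulb and 0.45 in the striatum. Array median scaling gave 6 in the prefrontal cortex, 40 in the amygdala, 21 in the hippocampus and 11 in the hypothalamus. Quantile normalization gave 30 in the olfactory bulb and 48 in the prefrontal cortex, with shifts of 0.0068 in the olfactory bulb, 0.13 in the striatum and 0.078 for KO minus WT within the striatum. Normexp gave 1 member for KO minus WT, 35 in the amygdala, 19 in the hippocampus and 32 in the hypothalamus, with shifts of -0.23 in the olfactory bulb, -0.067 in the striatum, and, for KO minus WT, 0.054 within the striatum and -0.028 within the amygdala. Requiring all 12 arrays above background gave shifts of -0.34 and 0.39 in the olfactory bulb and striatum. No filter gave 13 in the prefrontal cortex, 7 in the hippocampus and 11 in the hypothalamus, with shifts of -0.38 in the olfactory bulb, 0.27 in the striatum and -0.021 within the amygdala. Features above the 75th percentile alone gave 2 members for KO minus WT, 35 in the prefrontal cortex, 31 in the amygdala, 19 in the hippocampus and 31 in the hypothalamus, with shifts of -0.16, 0.50 and, within the amygdala, -0.19; this test ran on fewer features. The limit at level 4, added after seeing the data, gave 2 members for KO minus WT, 19 in the hippocampus and shifts of 0.032 in the olfactory bulb and 0.41 in the striatum. The mean of a gene's probes gave a striatum shift of 0.40, and the authors' deposited ratios an amygdala KO minus WT shift of -0.17. A trended robust variance gave 35, 38, 20 and 32 in the prefrontal cortex, amygdala, hippocampus and hypothalamus. Without the genotype covariate the prefrontal cortex had 15 and the hypothalamus 7. Leaving out 1 region at a time gave 49 to 63 in the olfactory bulb, 12 to 30 in the prefrontal cortex, 62 to 68 in the striatum, 13 to 31 in the amygdala, 4 to 18 in the hippocampus, 11 to 36 in the hypothalamus and 0 for KO minus WT; shifts ran from -0.48 to -0.30 in the olfactory bulb and from 0.38 to 0.53 in the striatum. The prefrontal cortex had 12 and the hippocampus 4 without the striatum, the amygdala 31 without the hypothalamus, and the hypothalamus 36 without the amygdala, and 11 without the olfactory bulb or the striatum. These counts are given without the share of all features, which the settings can move as well. The other causes were not tested.

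Under quantile normalization the striatum count of members below 0 rose from 10 to 32, and the olfactory bulb count above 0 from 3 to 44. Rps23 in the striatum went from 0.84 to -0.19 under it, and Rps14 from 0.52 to -0.37. Among genes named as highest or lowest, the values that changed sign had not passed the test in the main setting. In the olfactory bulb Rpl7 gave -0.096 with median scaling, -0.067 with the mean of probes and -0.021 to 0.15 with 1 region left out, Rps27l gave -0.11 with median scaling, and Rpl28 gave 0.35 with quantile normalization, 0.037 with normexp and -0.066 to 0.050 with 1 region left out. Rpl36al in the prefrontal cortex gave -0.013 with quantile normalization. Rpl39l in the hippocampus gave -0.065 with quantile normalization and -0.053 with normexp, and in the hypothalamus 0.12 with the mean of probes.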
